A study of Mus musculus with 6 samples.

Results

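A set of 10 genes of nitric oxide production was followed in GC-1 spg cells, an immortalised mouse line derived from type B spermatogonia: the nitric oxide synthases Nos2 and Nos3, the arginases Arg1 and Arg2, the arginine-rebuilding enzymes Ass1 and Asl, the arginine carrier Slc7a2, and Gch1, Pts and Spr, which make the cofactor tetrahydrobiopterin. They are 10 of 57180 genes in the deposited table, found by their symbols, and all 10 were present as rows. They were chosen by the difference in Nos2 between the groups of this series and by their roles around it, so their fold changes are given as a description, with no p-value and with no call read as support. The groups were 3 libraries from cells overexpressing SNHG1, a small nucleolar RNA host gene with a long non-coding transcript (Ov_SNHG1), and 3 from cells with the empty vector (Vector), both collected 24 hours after transfection. All 6 samples carry the treatment label "Non-obstructive azoospermia", which is not explained in the sources used here, and neither the species nor the promoter of the SNHG1 construct is given there. The labels do not say whether replicates were separate cultures, so errors and p-values cover only library-to-library spread, part of which may be technical.

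Nitric oxide synthases oxidise arginine to citrulline and nitric oxide, and they need tetrahydrobiopterin (BH4) as a cofactor. Nos2 is the inducible form, regulated mainly through its transcription, and inflammatory stimuli acting through NF-kappaB are among its textbook inducers in macrophages and many other cells. Arginine reaches the enzyme through cationic amino acid carriers or is rebuilt from citrulline by Ass1 and Asl, whereas arginases consume it. BH4 is made from GTP by Gch1, the rate-limiting first enzyme, followed by Pts and Spr.

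Promoter sequences were available for 4 of the 10 members, Ass1, Gch1, Pts and Spr, in a RefSeq table on build GRCm38.p6. The 250 bases before the start site are shown for the 3 enzymes of BH4 synthesis, because these act in successive steps of 1 pathway. The Gch1 stretch is chr14:47189414-47189663, that of Pts is chr9:50528657-50528906 and that of Spr is chr6:85137765-85138014, all on the minus strand and written 5′ to 3′. Capitals mark matches on either strand to 4 motifs: the CCAAT box, the GC box with the letters GGGCGG, the TATA box with the letters TATAAA, and the kappaB consensus.
Gch1: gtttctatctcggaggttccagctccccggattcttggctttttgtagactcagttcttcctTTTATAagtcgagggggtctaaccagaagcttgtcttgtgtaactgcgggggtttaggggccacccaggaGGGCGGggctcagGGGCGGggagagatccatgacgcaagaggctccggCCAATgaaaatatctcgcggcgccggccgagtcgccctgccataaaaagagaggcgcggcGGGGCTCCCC
Pts: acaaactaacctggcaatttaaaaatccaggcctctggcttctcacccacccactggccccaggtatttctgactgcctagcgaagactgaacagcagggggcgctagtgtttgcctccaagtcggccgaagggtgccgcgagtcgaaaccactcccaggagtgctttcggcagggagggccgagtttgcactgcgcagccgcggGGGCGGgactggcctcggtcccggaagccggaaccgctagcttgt
Spr: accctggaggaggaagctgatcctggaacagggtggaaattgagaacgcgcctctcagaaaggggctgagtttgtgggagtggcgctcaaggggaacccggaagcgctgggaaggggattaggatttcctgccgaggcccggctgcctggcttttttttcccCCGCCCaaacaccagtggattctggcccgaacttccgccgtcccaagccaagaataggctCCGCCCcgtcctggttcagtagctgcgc
The Gch1 stretch held 1 CCAAT box, 2 GC boxes, 1 TATA box on the opposite strand 188 to 183 bases before the start, and a kappaB match, GGGGCTCCCC, in the last 10 bases before it. Pts held 1 GC box and Spr 2, both of them on the opposite strand, and neither held any of the other motifs. The Ass1 stretch, not printed, held 1 GC box, and in none of the 4 stretches did matches to different motifs overlap. Among 32851 promoters of the table, the CCAAT box was found in 33.8%, the GC box in 32.7%, the TATA box in 12.4% and the kappaB consensus in 7.25%. A match describes the letters and is not a measured binding site.

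The libraries held 19204858 to 21058425 counts in the Ov_SNHG1 group and 15521900 to 21095427 in the Vector group. Values are given as CPM, counts scaled to a library total of 1000000 after TMM normalization, unless another unit is named. Libraries of 1 group differed beyond counting noise (chi-square over its degrees of freedom, 10.65 to 16.75), and Ov_SNHG1 replicate 1 stood apart from its group on the second principal component (28.69 against -9.10 and -13.76). Mouse Snhg1 itself had 467, 555 and 487 counts in the Ov_SNHG1 libraries and 464, 402 and 385 in the Vector libraries. Its log2 fold change was 0.14 ± 0.10 (SE, edgeR adjusted p = 0.52), so the labelled overexpression was not detected in the counts of this gene, and the groups are those of the labels. The samples are labelled as germ cells. Of 10 germ cell markers, 4 had 0 counts in all libraries, namely Ddx4, Sall4, Zbtb16 and Kit. The 10 together summed to 2.44 to 3.28 CPM in Ov_SNHG1 and 2.06 to 2.82 CPM in Vector libraries. Most of that sum was Gfra1, the only 1 of the 10 with enough counts to be tested. Gfra1 had 53, 51 and 41 counts in the Ov_SNHG1 libraries and 41, 23 and 43 in the Vector libraries. In bulk RNA, a change in the number of cells that express a gene and a change in its RNA per cell cannot be told apart.

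Nos2 stood far higher in the Ov_SNHG1 libraries. Nos2 (ENSMUSG00000020826, chromosome 11, 78811613 to 78851080 in the table, whose build is not named) had 4105, 3167 and 2599 counts in the Ov_SNHG1 libraries against 46, 20 and 42 in the Vector libraries. These were 210.6, 150.3 and 134.7 CPM against 2.19, 1.29 and 2.28 CPM. The groups were far from overlapping, and within the Ov_SNHG1 group replicate 1 was the highest. The means were 165 ± 40.1 and 1.92 ± 0.547 CPM (SD, n = 3 each), and the log2 fold change was 6.40 ± 0.25 (SE), or 84.3-fold with a 95% interval of 56.9 to 124.9. By mean CPM, Nos2 was 1227th of 14605 tested genes in the Ov_SNHG1 libraries and 12341st in the Vector libraries, and its log2 fold change was the 4th highest. Leaving out any single library gave log2 fold changes within the range of 6.18 to 6.53 found over all 14 alternatives.

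**Figure D1:**
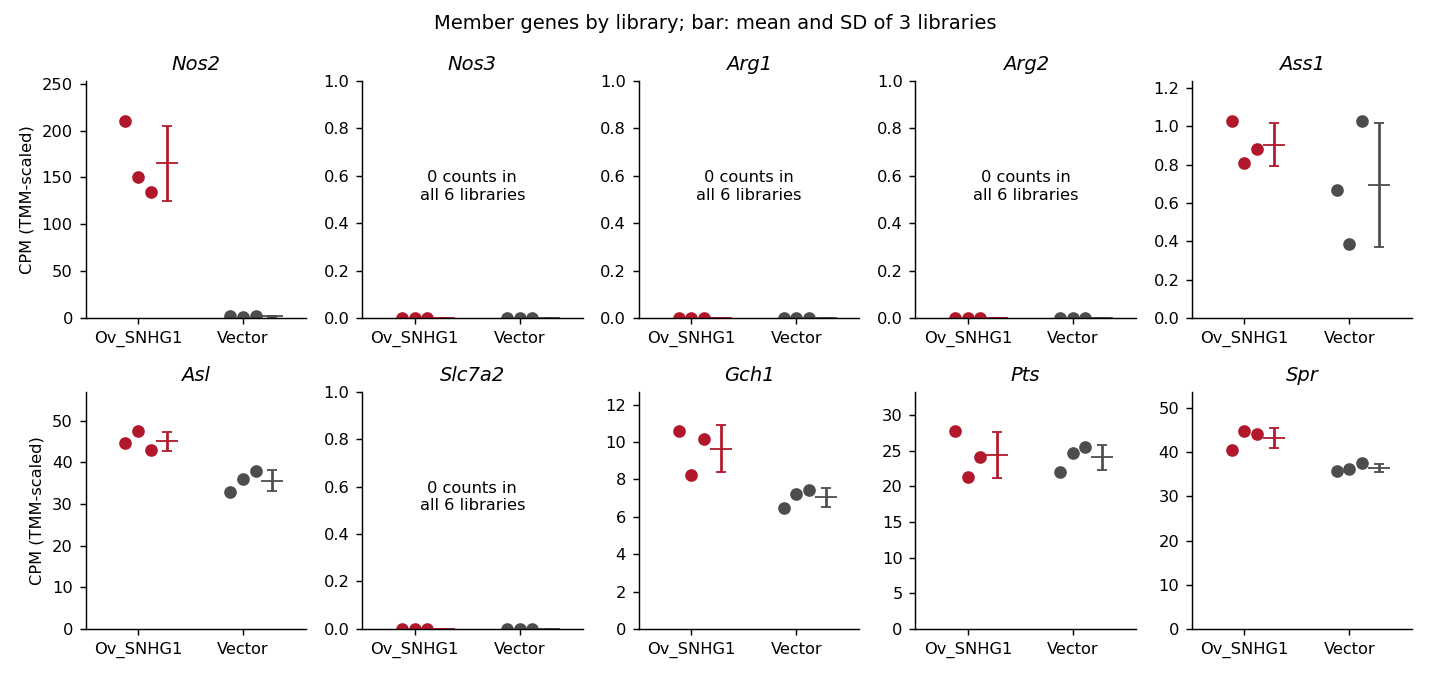
CPM of each of the 10 members in each library, with Ov_SNHG1 on the left and Vector on the right of each panel; points are libraries and bars are the mean with its SD (n = 3). Nos2 separates the groups widely, Asl, Gch1 and Spr separate them narrowly, Ass1 and Pts overlap, and the other 4 members had 0 counts.

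No other nitric oxide synthase had more than a few counts. The endothelial form Nos3 (ENSMUSG00000028978) had 0 counts in all 6 libraries. Where reads could be assigned to a row, a count of 0 allows up to 3 counts in a group. That is 0.0502 CPM over the Ov_SNHG1 group and 0.0545 CPM over the Vector group. How reads were counted is not given, and whether the Nos3 row could receive reads was not tested. The neuronal form Nos1, not a member, had 3, 12 and 1 counts in the Ov_SNHG1 libraries and 4, 5 and 4 in the Vector libraries, too few to be tested. Nos2 made up 99.93, 99.62 and 99.96% of all synthase counts in the Ov_SNHG1 libraries, the lowest of these with an exact binomial 95% interval of 99.34 to 99.8%. In the Vector libraries the shares were 92.0, 80.0 and 91.3%, with the lowest interval at 59.3 to 93.2%. Neither the intervals nor the limits include any error beyond counting, and PCR duplicates make even that too small. These are shares of counts and not of levels per length.

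The arginases and the inducible carrier had no counts. Arg1, the liver-type arginase, Arg2, the mitochondrial arginase, and Slc7a2, the cationic amino acid transporter CAT2, each had 0 counts in all 6 libraries, within the same limits as Nos3. Zeros of this kind are common in the table, where 6785 of 21608 protein-coding rows had no count in any library. Whether all of these rows could receive reads was not tested, so a 0 here need not mean that the RNA was absent. Slc7a1, a listed comparison gene that encodes the related carrier CAT1, was by contrast abundant, at 161 ± 12.4 CPM in Ov_SNHG1 and 156 ± 9.76 CPM in Vector libraries (SD, n = 3 each). Its log2 fold change of 0.05 ± 0.08 (SE, edgeR adjusted p = 0.785) had a 95% interval of -0.13 to 0.22.

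The enzymes that rebuild arginine from citrulline differed in level. Ass1, argininosuccinate synthetase, had 20, 17 and 17 counts in the Ov_SNHG1 libraries and 14, 6 and 19 in the Vector libraries, close to 1 CPM, and the groups overlapped. Its log2 fold change of 0.36 had a 95% interval of -0.48 to 1.19, so at this depth a change of up to 2.28-fold upward is within the interval. It was 0.10 without Vector replicate 2 and 0.73 without Vector replicate 3. Asl, argininosuccinate lyase, which releases arginine, had 872, 1001 and 830 counts against 690, 560 and 700, or 44.7, 47.5 and 43.0 CPM in Ov_SNHG1 libraries against 32.8, 36.1 and 37.9 CPM in Vector libraries. All Ov_SNHG1 values of Asl lay above all Vector values, and the log2 fold change was 0.34 ± 0.08 (SE), or 1.27-fold.

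The 3 enzymes of BH4 synthesis were present in every library. Gch1 stood at 10.6, 8.21 and 10.2 CPM in the Ov_SNHG1 libraries and at 6.47, 7.22 and 7.43 CPM in the Vector libraries, from 206, 173 and 196 against 136, 112 and 137 counts. The groups did not overlap, though Ov_SNHG1 replicate 2 came close to the Vector libraries. The log2 fold change was 0.45 ± 0.13 (SE), or 1.37-fold with a 95% interval of 1.105 to 1.70. Spr, sepiapterin reductase, stood at 40.5, 44.7 and 44.2 CPM in the Ov_SNHG1 libraries against 35.6, 36.2 and 37.5 CPM in the Vector libraries, with a log2 fold change of 0.25 ± 0.07 (SE). Here too the groups did not overlap. Pts, 6-pyruvoyl-tetrahydropterin synthase, stood at 27.7, 21.3 and 24.1 CPM in the Ov_SNHG1 libraries and at 22.0, 24.6 and 25.5 CPM in the Vector libraries. The Pts groups overlapped, and the log2 fold change of 0.02 had a 95% interval of -0.25 to 0.28.

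Of the 10 members, 6 passed the filter on low counts, and edgeR called 1 of them, Nos2, at an adjusted p under 0.05, where 2.40% of all tested genes were called and 1.54% were called higher. Asl, Gch1 and Spr were not called. DESeq2 called Nos2 and Asl, against 4.44% of all genes. The CPM of the groups did not overlap for 4 members, Nos2, Asl, Gch1 and Spr, each higher in Ov_SNHG1, as did those of 11.3% of all tested genes in that direction. The median log2 fold change was 0.35 over the 6 members and 0.01 over all tested genes. Because the contrast was used to choose the list, nothing is read from these counts. The counts over all genes also moved with single libraries left out, to between 123 and 807 called genes against 350. Genes within 2 percentage points of a member's GC content had median log2 fold changes of -0.10 around Pts, -0.02 around Gch1, 0.04 around Spr and 0.07 around Asl, and the part of GC content in the members' values was not tested further than by the trend removal given in the closing section.

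Together the members summed to 335.2, 272.8 and 257.0 CPM in the Ov_SNHG1 libraries and to 99.9, 105.8 and 111.6 CPM in the Vector libraries. Nos2 was 62.8, 55.1 and 52.4% of that sum in the Ov_SNHG1 libraries and 2.19, 1.22 and 2.04% in the Vector libraries. Without Nos2 the sums were 124.6, 122.5 and 122.3 CPM against 97.7, 104.5 and 109.3 CPM. Most of the difference in the sum lay in Nos2, and the smaller remainder lay in the supply genes.

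Levels of different genes were compared per length, on the deposited FPKM scale (counts divided by the length of the gene model and by the total of the library). In the Ov_SNHG1 libraries the order was Nos2 at 36.2 ± 8.71 FPKM, Spr at 7.39 ± 0.403, Asl at 6.80 ± 0.330, Pts at 2.10 ± 0.277, Gch1 at 1.54 ± 0.202 and Ass1 at 0.306 ± 0.037 FPKM (SD, n = 3 each). Spr and Asl overlapped there. In the Vector libraries Spr led at 6.21 ± 0.168, before Asl at 5.35 ± 0.398, Pts at 2.07 ± 0.158, Gch1 at 1.12 ± 0.082, Nos2 at 0.419 ± 0.119 and Ass1 at 0.234 ± 0.109 FPKM (SD, n = 3 each). Nos2 and Ass1 overlapped there, while the other neighbours did not. The length behind the FPKM of Pts was 11605 bp, more than its genomic span of 7108 bp, so its FPKM rests on a length longer than the gene itself. With merged exons of the GENCODE M21 annotation as the length (6101 bp for Pts), the order was the same in both groups. On that scale the ratio of Nos2 to Gch1, synthase to the first cofactor enzyme, was 28.2, 25.9 and 18.8 in the Ov_SNHG1 libraries and 0.479, 0.253 and 0.434 in the Vector libraries.

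**Figure D2:**
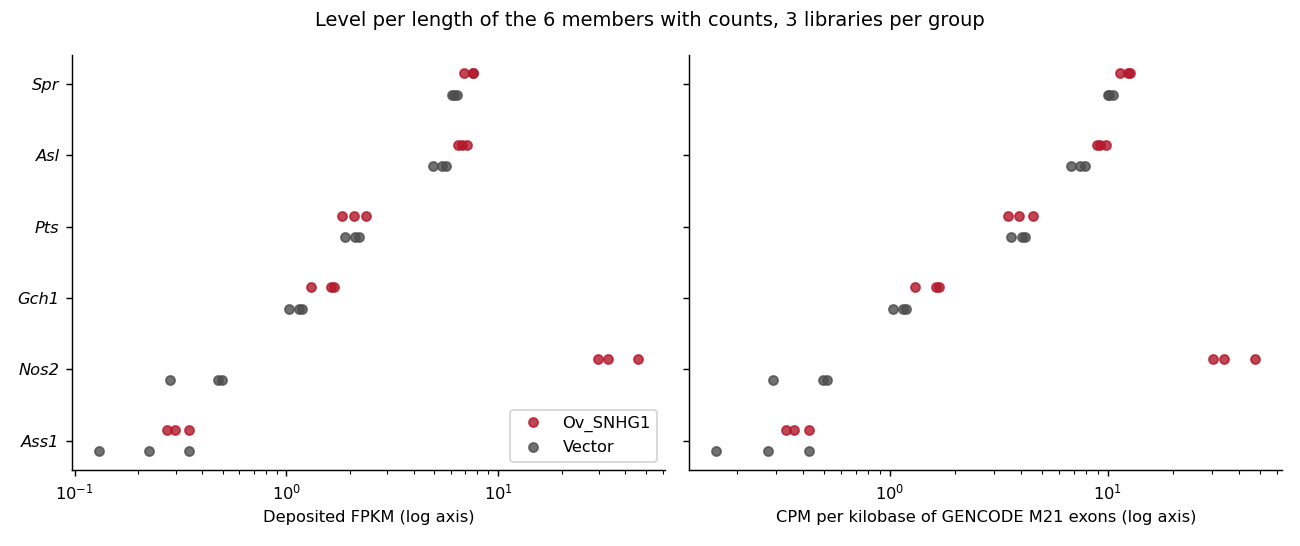
Level per length of the 6 members with counts, as deposited FPKM (left panel) and as CPM per kilobase of GENCODE M21 exons (right panel), both on log axes; each point is a library, with Ov_SNHG1 above Vector in each row. Nos2 lies above every other gene in the Ov_SNHG1 libraries and below Gch1 in the Vector libraries, and the order of the other 5 genes is the same in both groups.

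The wider pathway outside the members held few called genes, as did the table as a whole. In 7 lists of partner, transport, turnover, cofactor and response genes with 70 entries, 53 genes were tested with edgeR, of which 0 were higher and 1 was lower, beside 2.40% of all tested genes called. An unadjusted p under 0.05 was found for 11 of them, and for 17.0% of all tested genes. DESeq2 called 0 higher and 2 lower there, and limma-voom 0 and 1, beside 4.44% and 2.38% of all genes. Their median log2 fold change was 0.05, with a range of -0.46 to 0.32, against a median of 0.01 over all tested genes. Odc1, ornithine decarboxylase of polyamine synthesis, stood at 232 ± 27.4 CPM in Ov_SNHG1 and 215 ± 2.05 CPM in Vector libraries (SD, n = 3 each), and Gchfr, the feedback regulator of Gch1, at 38.4 ± 7.18 and 43.6 ± 4.21 CPM. Ddah1 and Ddah2, which break down the methylarginine inhibitors of the synthases, had log2 fold changes of 0.23 ± 0.13 and -0.08 ± 0.07 (SE), and none of these 4 genes passed (edgeR, adjusted p from 0.408 to 0.562). The soluble guanylate cyclase subunits Gucy1a2 and Gucy1b1, which are part of the nitric oxide receptor, had 0 counts in all libraries, and Gucy1a1 had 1 count in all.

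Sms, spermine synthase, was the called decrease. It stood at 175.1, 146.8 and 143.5 CPM in the Ov_SNHG1 libraries and 208.9, 221.0 and 210.8 CPM in the Vector libraries. The log2 fold change was -0.46 ± 0.08 (SE, edgeR adjusted p = 0.0298). With single libraries left out, the call was lost without Ov_SNHG1 replicates 2 or 3 and without any of the Vector libraries, with adjusted p from 0.093 to 0.12 in edgeR.

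Several genes listed as transcriptional regulators of Nos2 rose, among them the gene of an NF-kappaB inhibitor. Of 14 listed genes 13 were tested, and 8 rose and 0 fell by edgeR, where 1.54% of all tested genes rose. An unadjusted p under 0.05 was found for 11 of the 13, and for 17.0% of all tested genes. The list had a median log2 fold change of 0.55 against 0.01 over all tested genes. Because the list was chosen with earlier results of these data known, its counts and values are given as a description. Nothing is read from them as support. Nfkbiz, an inducible nuclear IkappaB protein, stood at 183.5, 116.2 and 152.0 CPM in the Ov_SNHG1 libraries against 32.2, 31.3 and 29.7 CPM in the Vector libraries and rose by 2.28 ± 0.15 on the log2 scale (SE, edgeR adjusted p = 0.000276). Cebpd, a C/EBP factor, rose by 2.01 ± 0.11, Nfkbia, which encodes an NF-kappaB inhibitor, by 1.79 ± 0.07, and the NF-kappaB subunit genes Nfkb1 and Nfkb2 by 1.12 ± 0.06 and 0.92 ± 0.06 (log2, SE, edgeR adjusted p from 1.04e-05 to 0.000153). Irf1, an interferon regulatory factor required for Nos2 induction in mouse macrophages, rose by 0.47 ± 0.08 (SE, edgeR adjusted p = 0.0233). With single libraries left out, its call was lost without Ov_SNHG1 replicate 3 and without each Vector library (adjusted p from 0.0556 to 0.0994).

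**Figure D3:**
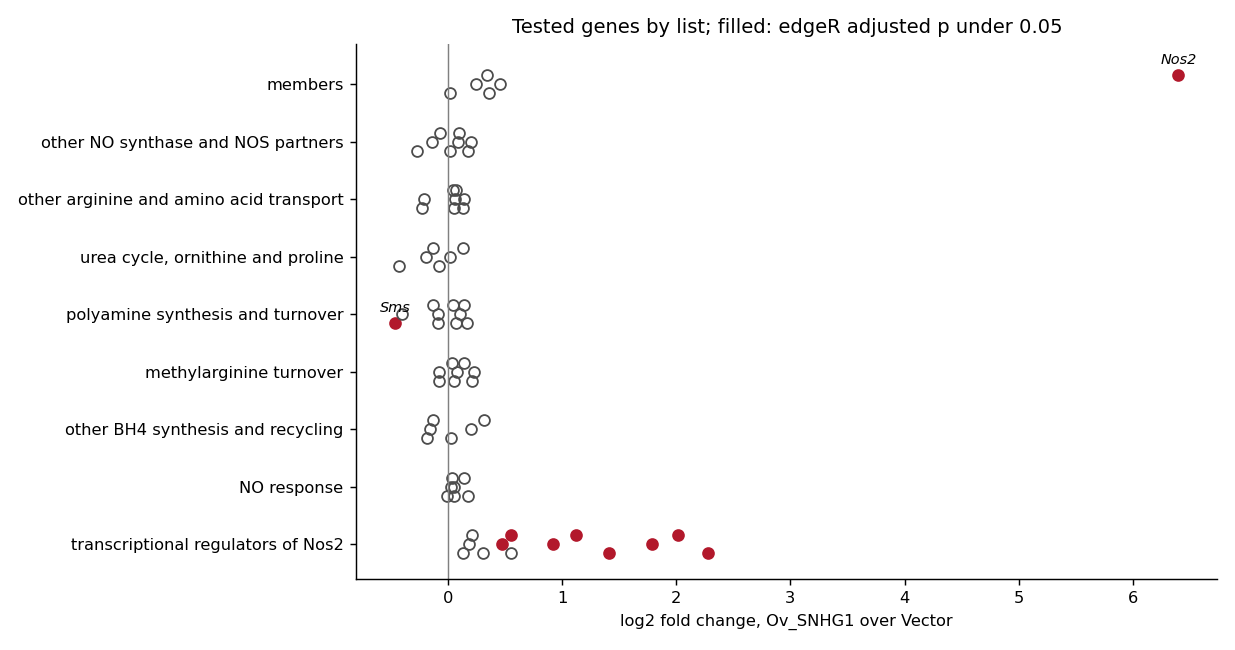
Log2 fold change, Ov_SNHG1 over Vector, of each tested gene in the member list and the 8 surrounding lists; filled points passed the edgeR test at an adjusted p under 0.05. Nos2 lies at 6.40, the other tested members between 0.02 and 0.45, Sms at -0.46, and filled points are otherwise found among the regulators.

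Because Nos2 is a well-known macrophage gene, markers of that cell type are given beside it. The 10 macrophage markers summed to 42.4 to 48.25 CPM in the Ov_SNHG1 libraries and 33.8 to 34.75 CPM in the Vector libraries. Of 4 tested, 1 was called, beside 2.40% of all tested genes. This was Cd14, which rose by 0.76 ± 0.10 (log2, SE, edgeR adjusted p = 0.00728), and Lyz2 stood at 14.5 to 16.6 CPM in both groups. Cd68 stood at 3.69 to 4.04 CPM in Ov_SNHG1 and 2.17 to 2.71 CPM in Vector libraries, and Csf1r at 0.949 to 1.14 and 1.35 to 1.52 CPM. Neither passed (edgeR, adjusted p = 0.0904 and 0.319), and the groups did not overlap in either gene. In the direction of Cd68, higher in Ov_SNHG1, the groups did not overlap for 11.3% of all tested genes. The share in the direction of Csf1r is not given here. The listed marker Tyrobp had 0 counts throughout, Adgre1 had 5, 3 and 2 counts against 6, 7 and 5, and Ptprc had 7, 9 and 2 against 2, 3 and 2. The 5 neutrophil markers summed to at most 0.332 CPM in Ov_SNHG1 and 0.108 CPM in Vector libraries. The 6 endothelial markers, listed because Nos3 is their typical synthase, summed to 1.28 to 1.87 and 1.55 to 1.84 CPM, with Kdr and Emcn at 0. Markers of other testicular cells did not pass in edgeR: 4 tested Sertoli, 2 Leydig and 2 peritubular genes had adjusted p values of at least 0.396. Their sums were 95 to 106.2 CPM in Ov_SNHG1 and 95.3 to 112.6 CPM in Vector libraries for the Sertoli list, most of it Sox9 and Clu, 2.28 to 3.01 and 2.33 to 2.84 CPM for Leydig, and 9.25 to 10.4 and 9.02 to 12.5 CPM for peritubular cells. The part of any other cell type in the Nos2 level was not tested.

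The genes with profiles most like that of Nos2 were Saa3, Serpina3h, C3, Lcn2 and Cxcl5. Likeness was the root mean square difference of centred log2 CPM over the 6 libraries, among 13267 other genes with a mean of at least 20 counts. Saa3, an acute-phase serum amyloid, was the nearest at 0.32 log2 units, with 230, 230 and 256 counts in the Ov_SNHG1 libraries against 2, 0 and 3 in the Vector libraries. Serpina3h lay at 0.90, complement C3 at 1.01, the siderophore-binding Lcn2 at 1.18 and the chemokine Cxcl5 at 1.36. Serpina3h had 53, 46 and 56 counts in the Ov_SNHG1 libraries and 0 in each Vector library. Lcn2 had 50, 77 and 41 counts against 4, 0 and 0. With so few Vector counts, the distances of Saa3, Serpina3h and Lcn2 depend on the prior count of 2. The log2 fold changes of C3 and Cxcl5, 4.43 ± 0.14 and 3.76 ± 0.08 (SE), were smaller than that of Nos2. Serpina3h belongs to a family of near-identical genes, so its counts may include those of relatives. The measure favours genes whose difference between groups is about as large as that of Nos2. Within the Ov_SNHG1 group, C3 was highest in replicate 1 as Nos2 was (811.6 against 585.4 and 596.7 CPM), whereas Saa3 was highest in replicate 3 and Lcn2 and Cxcl5 in replicate 2.

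**Figure D4:**
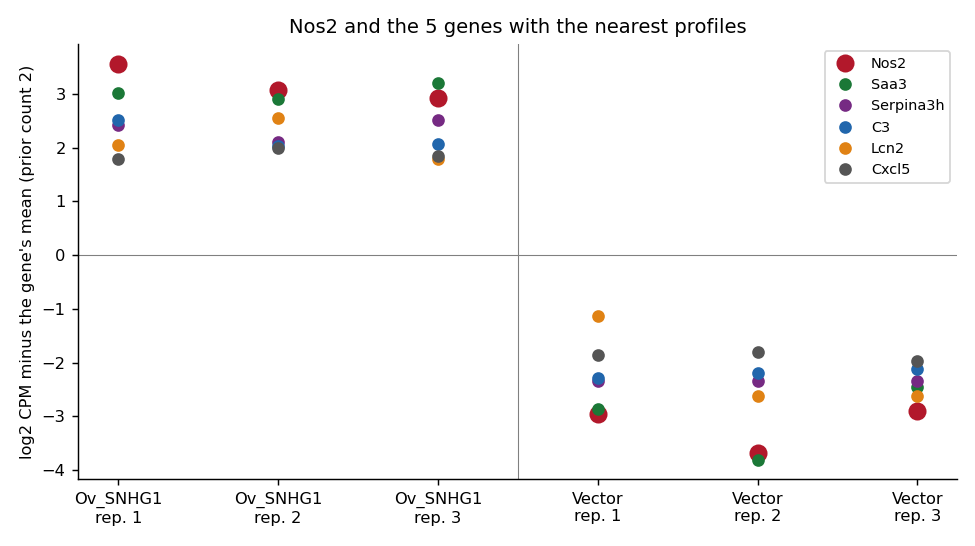
Log2 CPM of Nos2 and the 5 genes with the nearest profiles in each library, each minus the gene's mean over the 6 libraries (prior count 2). All 6 genes are above 0 in the Ov_SNHG1 libraries and below 0 in the Vector libraries, with Nos2 highest in Ov_SNHG1 replicate 1.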

How the data were processed

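Poly(A)-selected, stranded libraries of 6 samples were sequenced in pairs, per the labels' protocols. The authors deposited 1 table with whole-number counts and FPKM values per gene and library. The submitters' processing notes name StringTie, HISAT2 and SAMtools 1.3.1 and the human build GRCh38, although the rows carry mouse identifiers. How reads were counted is not given in those notes or in the labels, nor is the strand setting. Samples were grouped by title. Genes were tested with edgeR 4.0.16 (R 4.3.3) quasi-likelihood F tests on all deposited counts, with TMM scaling, filterByExpr, no term besides group and a threshold of 0.05 on Benjamini-Hochberg adjusted p. The 525 rows without a symbol held 0.194% of counts. The procedure was tested on simulated data. The members and lists were chosen with earlier results of these data known. Named genes were the members, Snhg1, up to 5 called genes per list, 8 fixed comparison genes and the 5 profiles nearest to Nos2; other genes, such as the markers given by count, were named after their values were seen. Alternatives were median-of-ratios or total-count scaling, 2 other filters, DESeq2 1.42.0, limma-voom (limma 3.58.1), a replicate block, each library left out, and, chosen after seeing the data, GC and length trends removed with mgcv and levels per GENCODE exon kilobase. One list entry, Akr1b3, was matched by its identifier to the row Akr1b1.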

Additional observations from a re-analysis of the deposited data

How the results depend on the processing

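The log2 fold change of Nos2, whose difference chose the list, ran from 6.18 to 6.53 over 14 alternatives. Snhg1 was not called in any of the 14, with log2 fold changes of 0.07 to 0.22. The count of called genes, 350, was 648 with DESeq2 and 163 with the replicate block, and ran from 123 to 807 with single libraries left out: 807, 162 and 176 without Ov_SNHG1 replicates 1, 2 and 3, and 123, 151 and 143 without Vector replicates 1, 2 and 3. Those fits hold fewer libraries, and why 1 of them called more was not tested. In the surrounding lists, 9 genes were called and 7 to 12 over the alternatives. Same-numbered libraries did not deviate together (correlations of -0.004, -0.03 and -0.021 over 14605 genes), so the numbers were not taken to pair libraries, although Amd1 was low in replicate 3 of both groups. With the block, Sms and Irf1 were not called (adjusted p = 0.0766 and 0.0533). With single libraries left out, Pts (0.02) ran from -0.087 to 0.107 and was below 0 without Ov_SNHG1 replicate 1 or Vector replicate 1 (-0.047), and Slc7a1 (0.05) ran from -0.00037, without Ov_SNHG1 replicate 2, to 0.106. With GC and length trends removed, Asl was at 0.27, Gch1 at 0.47, Spr at 0.21 and Pts at 0.10 (log2), and 420 genes were called. DESeq2 gave no adjusted p for Serpina3h, Lcn2 or Ass1, and Ass1 did not pass the filter of 1 CPM in 3 libraries. With single libraries left out, Ass1 (0.36) ran from 0.10 to 0.73. At 6 to 20 counts, it is limited by depth.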

Other observations

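The counts assigned to Amd1, the decarboxylase that supplies spermidine and spermine synthesis, differed between replicates rather than groups. Amd1 stood at 69.7, 68.5 and 7.83 CPM in Ov_SNHG1 replicates 1, 2 and 3. In Vector replicates 1, 2 and 3 it stood at 78.3, 75.4 and 6.45 CPM, so replicate 3 of each group was low. How reads were assigned to this gene is not given, and why replicate 3 was low was not tested. Amd1 was singled out after its values were seen. Pcbd1, a BH4 recycling enzyme, and Cbr1, a carbonyl reductase that can stand in for Spr, had 0 counts in all 6 libraries. Qdpr, the reductase that recycles oxidised BH4, varied within both groups, at 63.3 ± 19.2 CPM in Ov_SNHG1 and 69.3 ± 15.6 CPM in Vector libraries (SD, n = 3 each).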
